A study of Mus musculus with 6 samples.

Results

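Cxcl12, Cxcr4 and Ackr3 make up a chemokine axis that holds leukocytes in place: a ligand, the receptor that signals for it and a receptor that removes it. The members were chosen by their symbols, 3 of the 32285 genes in the tables. Their unique molecular identifiers (UMIs, 1 per captured transcript) were summed over the cells of each marker-defined class in each library. The cells came from mouse ventricles after a sham operation or after LAD ligation, in which the left anterior descending artery is tied off to cause myocardial infarction. Hearts were digested with thermolysin and papain, most cardiomyocytes were held back by a mesh, and the rest was sorted for live cells (Calcein-AM, DAPI) before 10x 3′ single-cell RNA sequencing.

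All mice were male and 8-12 weeks old. Wild-type (WT) mice were of strain C57BL/6JRj and knockout (KO) mice of strain B6.Cg-Trpm4tm1.2-PG, which carries the Trpm4 knockout allele; Trpm4 is a cation channel opened by intracellular calcium. Each genotype had 3 groups: sham sampled at 24 h, ligation sampled at 24 h and ligation sampled at 72 h. The last 2 are also called the 24 h and 72 h infarcts, and the sham group at 24 h is the only sham group used here. Each group is 1 library made from the pooled cells of 4 mice. No difference between groups has a replicate check, no test was made, and differences between libraries, operations and mice cannot be told apart from those between groups. The 95% intervals below (exact Poisson for sums, exact Clopper-Pearson for shares) cover counting error only.

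Cxcl12, also called SDF-1, is secreted by stromal and endothelial cells and binds to the matrix around them. It signals through Cxcr4, a receptor coupled to inhibitory G proteins that keeps neutrophils and progenitors in the bone marrow and that ageing neutrophils display more of; losing this signal lets them leave. Ackr3, once called CXCR7, also binds Cxcl12 but does not couple to G proteins: it takes the ligand up for breakdown and so shapes its gradient.

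The 3 genes lie on 2 chromosomes. In the GENCODE M21 annotation of GRCm38, Cxcl12 (ENSMUSG00000061353) covers chromosome 6 from 117168535 to 117181367 on the plus strand. Cxcr4 (ENSMUSG00000045382) covers chromosome 1 from 128588199 to 128592293 on the minus strand, and Ackr3 (ENSMUSG00000044337) covers chromosome 1 from 90203980 to 90216751 on the plus strand. The 250 bases before each RefSeq start site (GRCm38.p6) are printed because the 3 genes were read in different cell classes. They run 5′ to 3′ on the gene's strand and are promoter sequence outside the transcript, at chr6:117168285-117168534 (plus strand), chr1:128592300-128592549 (minus strand) and chr1:90203730-90203979 (plus strand). Capitals mark a GC box (GGGCGG, or CCGCCC on the opposite strand), the core that hypoxia-inducible factors bind (ACGTG or GCGTG, or their complements CACGT and CACGC) and TATAAA on the gene's strand.
Cxcl12: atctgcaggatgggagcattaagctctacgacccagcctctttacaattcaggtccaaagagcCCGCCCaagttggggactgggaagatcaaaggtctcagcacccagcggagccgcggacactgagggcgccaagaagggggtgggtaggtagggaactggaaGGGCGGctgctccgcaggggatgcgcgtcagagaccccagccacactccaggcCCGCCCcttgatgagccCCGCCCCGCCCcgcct
Cxcr4: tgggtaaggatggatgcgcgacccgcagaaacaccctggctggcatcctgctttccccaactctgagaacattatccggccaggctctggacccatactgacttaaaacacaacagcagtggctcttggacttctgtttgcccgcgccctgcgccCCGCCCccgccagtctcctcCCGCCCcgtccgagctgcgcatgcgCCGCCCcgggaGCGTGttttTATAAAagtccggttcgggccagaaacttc
Ackr3: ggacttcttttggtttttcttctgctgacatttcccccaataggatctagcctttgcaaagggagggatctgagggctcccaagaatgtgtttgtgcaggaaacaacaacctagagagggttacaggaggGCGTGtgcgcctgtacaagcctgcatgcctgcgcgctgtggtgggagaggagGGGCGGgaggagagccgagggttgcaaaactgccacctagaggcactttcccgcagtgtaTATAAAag

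The Cxcl12 window was 64.4% G and C and held 5 GC boxes, the last pair of which share a base, and neither of the other motifs. The Cxcr4 window (61.2% G and C) held 3 GC boxes, a GCGTG core and a TATAAA that begins 30 bases before the start. The Ackr3 window (54% G and C) held 1 GC box, 1 GCGTG core and a TATAAA that begins 8 bases before the start. Of 32851 RefSeq windows of the same length, 38.6% held a hypoxia core, 32.7% a GC box and 7.59% a TATAAA. These are matches of letters, not measured binding sites.

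After filtering, 5231 and 5633 cells (WT and KO) remained from the sham hearts, 3361 and 6557 from the 24 h infarcts, and 4376 and 6775 from the 72 h infarcts. The KO ligation 72 h library stood apart. Its median was 1356 UMIs per cell, against 3075 to 7996 in the other 5, and its non-leukocyte classes carried leukocyte transcripts: summed monocyte and macrophage markers came to 8399 CPM (counts per 1000000 UMIs of the class) in its fibroblasts, against 60.9 to 374 CPM elsewhere. Class names mean cells like that type by their markers. Marker genes ran over 2-fold above the other cells in every named class except for 2 of the 8 dendritic markers, Zbtb46 and Fscn1. The clusters were named by these same markers, so this result was largely fixed in advance. It also pools the libraries and does not check the classes of any single library. Trpm4 stood at 8.79, 5.52 and 4.29 CPM in WT and 6.20, 3.46 and 2.57 CPM in KO after sham and in the 24 h and 72 h infarcts. These 3′ tags may lie outside the deleted part and so do not check the genotype. Of 34822 distinct barcodes, 118 occurred in 2 libraries, with 3 to 14 for any pair.

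**Figure D1:**
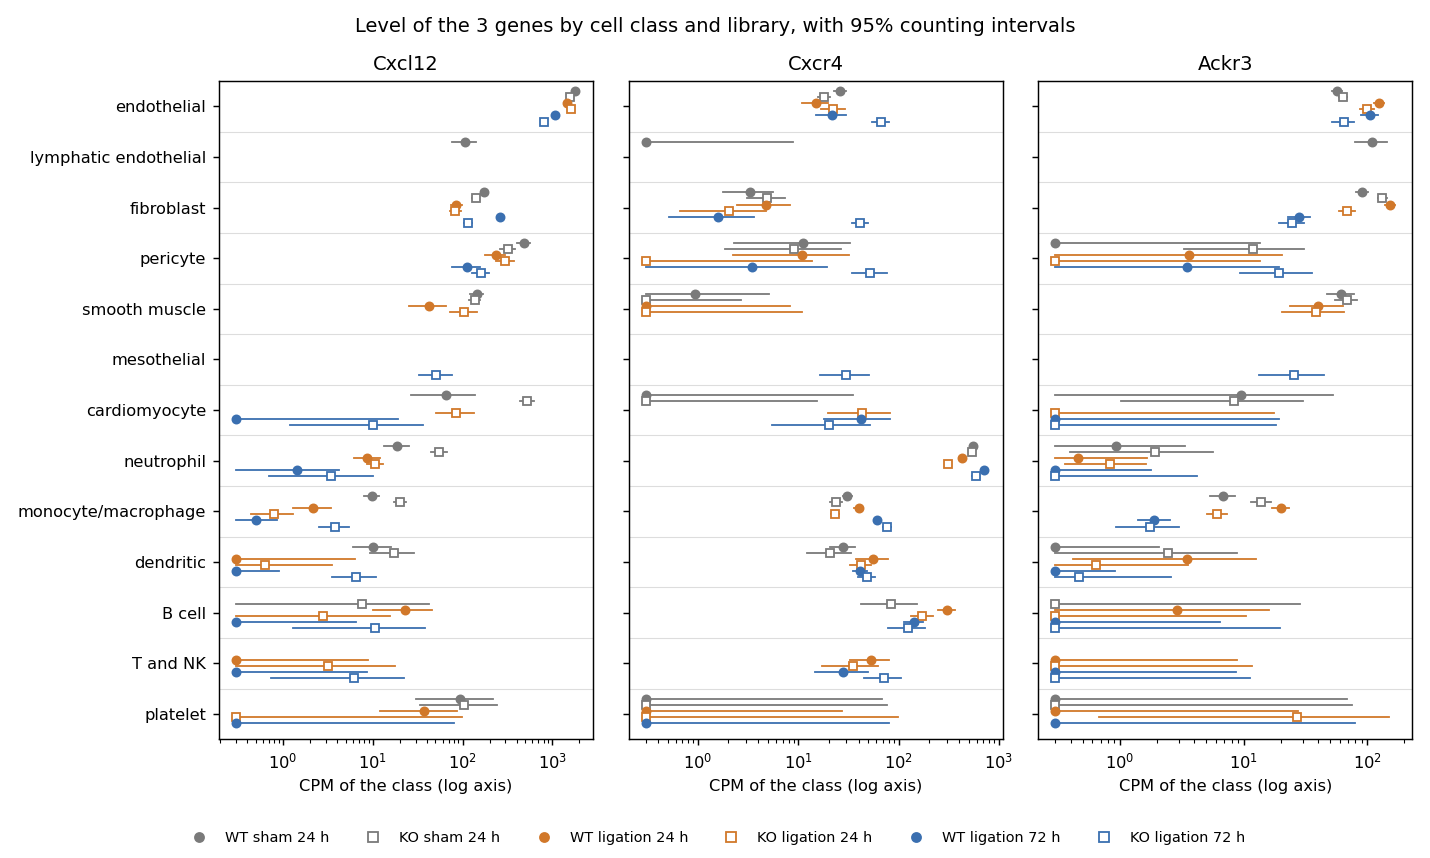
CPM of Cxcl12, Cxcr4 and Ackr3 (log axis) for each cell class with at least 30 cells, 1 point per library with its exact Poisson 95% interval. Points on the left edge, at 0.3 CPM, stand for values of 0 or below 0.3. Cxcl12 was highest in endothelial cells and Cxcr4 in neutrophils in all 6 libraries, and Ackr3 was spread over fibroblasts, endothelial cells and smooth muscle.

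Cxcl12, the ligand, was a vascular transcript in these digests. Endothelial cells held 1805 CPM (WT) and 1572 CPM (KO) after sham, 1462 CPM and 1595 CPM in the 24 h infarcts, and 1074 CPM and 815 CPM in the 72 h infarcts. In WT sham 24 h the interval ran from 1776 to 1833 CPM, over 15690 UMIs in 2333 cells. The lowest values were at 72 h in both genotypes, and the other 4 lay between 1462 and 1805 CPM. Pericytes, the cells wrapped around capillaries, held 479 CPM (WT) and 318 CPM (KO) after sham, 233 CPM and 298 CPM in the 24 h infarcts, and 111 CPM and 161 CPM in the 72 h infarcts. Fibroblasts, which build the matrix, held 173 CPM (WT) and 139.6 CPM (KO) after sham, 85.3 CPM and 82.8 CPM in the 24 h infarcts, and 260.1 CPM and 114 CPM in the 72 h infarcts. Smooth muscle held 143 CPM (WT) and 136 CPM (KO) after sham and 42.3 CPM and 103 CPM in the 24 h infarcts, with fewer than 30 cells at 72 h.

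The order endothelial cells, pericytes, then fibroblasts and smooth muscle held in WT sham 24 h. There the last pair (160.4 to 187 and 121 to 167 CPM) and the lymphatic endothelial cells (106 CPM, 77 to 142) had neighbouring intervals that overlapped. Fibroblasts passed pericytes in WT ligation 72 h only, where pericytes numbered 39; as a mean over cells the pericyte value was 427 CPM against 256 CPM in fibroblasts, which turns this order, and pericytes held 226 CPM at Leiden resolution 2. Endothelial cells carried 93% (95% interval 92.6 to 93.3%) of all Cxcl12 UMIs of the kept cells in WT sham 24 h. The shares in the other libraries were 93.4% in KO sham 24 h, 92% (WT) and 89% (KO) in the 24 h infarcts, and 61.8% and 62.4% in the 72 h infarcts. The fibroblast share was 4.04% and 3.04% after sham and 29.6% and 18.1% at 72 h. These shares follow the number of cells of each class in the sorted suspension as well as the level per cell.

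At least 1 Cxcl12 UMI was found in 85.9% of WT and 85.2% of KO endothelial cells after sham, 68.8% and 71.5% in the 24 h infarcts, and 68.8% and 36.2% in the 72 h infarcts. With every cell thinned to 1000 UMIs the shares were 67.3% and 65.1%, 55.1% and 58.3%, and 52.3% and 33.5%, which kept KO ligation 72 h lowest. Thinning left out the shallower cells: 329 of 795 there and 81, 52, 80, 83 and 21 in the others, in the order given. Neutrophils, which are not a source of Cxcl12, gave the free-RNA background: 0.314% to 3.41% of them had a UMI, at median depths of 1974 to 3162 UMIs, against 1156 to 3665 in endothelial cells. Their highest level was 55 CPM, in KO sham 24 h, where 1 cell held 28 of the 86 UMIs. Monocytes and macrophages held 0.496 to 20.1 CPM. This was below the neutrophils of the same library in 5 libraries and level with them in KO ligation 72 h (3.78 against 3.44 CPM). These classes differ in UMIs per cell, so CPM alone cannot show whether the macrophage values are free-RNA background.

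Within the endothelium, sub-clusters made without the 3 genes differed widely. Arterial-like cells held 3196 CPM (WT) and 2264 CPM (KO) after sham and 3122 CPM and 2746 CPM in the 24 h infarcts, from 261, 307, 58 and 51 cells. A sub-cluster led by Pth1r, Btnl9 and Rbp7, which is not drawn, was above them in KO sham 24 h and WT ligation 24 h and below in the other 2, with 3117 and 2957 CPM after sham and 3398 and 2705 CPM in the 24 h infarcts. Capillary-like cells held less, 1432 CPM (WT) and 1238 CPM (KO) after sham, 1150.1 CPM and 1386 CPM in the 24 h infarcts, and 1675 CPM and 1969.7 CPM in the 72 h infarcts. Angiogenic-like cells, led by Pgf and Apln, held 1584 CPM (WT) and 1517 CPM (KO) after sham, 1058 CPM and 1567 CPM in the 24 h infarcts, and 1106 CPM and 1328 CPM in the 72 h infarcts. Endocardial-like cells, which line the chambers, were lowest with 104 and 101 CPM after sham and 5.36 CPM in KO ligation 24 h.

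The make-up of the class differed at 72 h. There were 13 arterial-like cells in each 72 h library, and capillary-like cells were no lower there than after sham. In KO ligation 72 h, 555 of the 795 endothelial cells formed a shallow sub-cluster led by Ccl21a, Retnlg and Lgals3 (median 1099 UMIs) with 283 CPM of Cxcl12. With fewer, larger clusters (Leiden resolution 0.5) the class held 1336 CPM in that library.

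**Figure D2:**
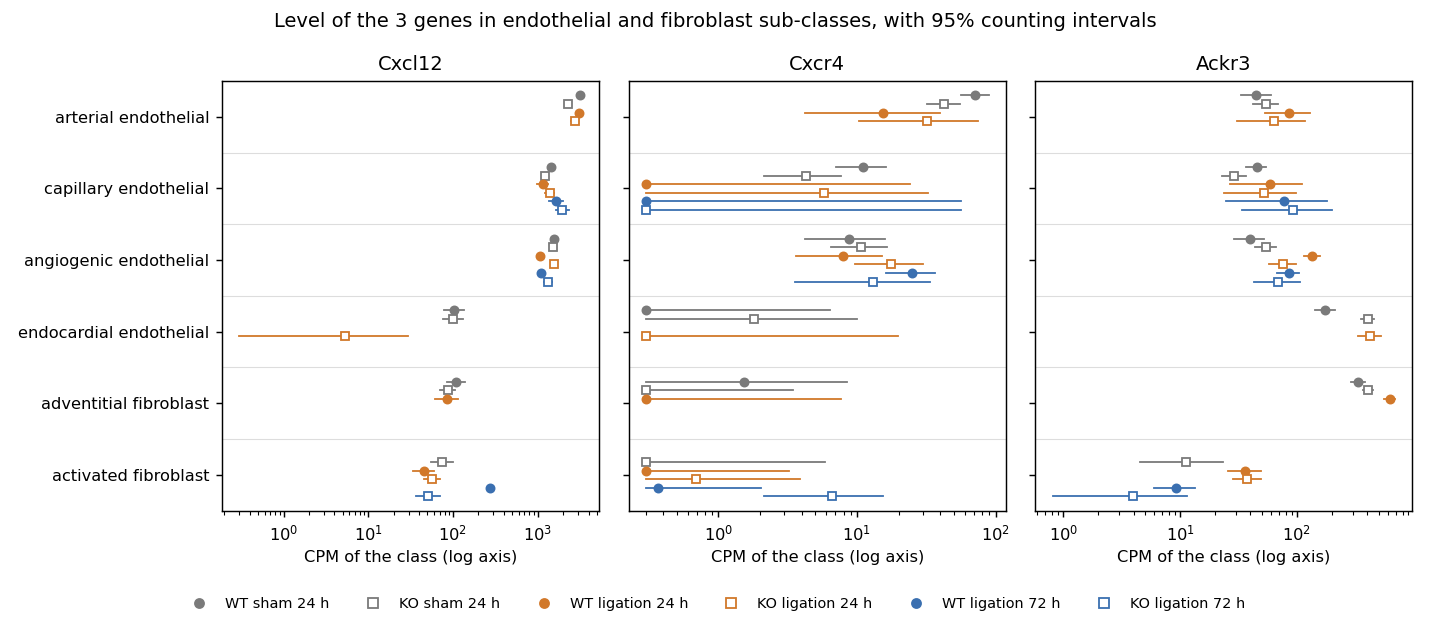
CPM (log axis) of the 3 genes in endothelial and fibroblast sub-classes with at least 30 cells, 1 point per library with its exact Poisson 95% interval; points on the left edge, at 0.3 CPM, stand for 0 or below 0.3. Of the endothelial sub-classes drawn, arterial-like cells had the highest Cxcl12 in the 4 libraries with 30 of them and endocardial-like cells the lowest where drawn, with high Ackr3, and Ackr3 peaked in adventitial-like fibroblasts.

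Between libraries, a difference was called where it was at least 2-fold with an interval that left out equality, for genes with at least 50 UMIs in the pair. Endothelial Cxcl12 met this rule in none of the 7 comparisons. KO against WT came to -0.20 (95% interval -0.23 to -0.17) on the log2 scale after sham, 0.13 (95% interval 0.06 to 0.19) at ligation 24 h and -0.40 (95% interval -0.50 to -0.29) at ligation 72 h. Ligation 24 h against sham was -0.30 in WT and 0.02 in KO, and 72 h against 24 h after ligation was -0.45 and -0.97. The last value passed 2-fold under 3 alternatives: -1.26 with at most 10% mitochondrial UMIs, -1.17 as a mean over cells and -1.10 without the cell with the most UMIs. KO against WT at 72 h changed sign at Leiden resolution 0.5 (0.17). Over all endothelial genes with enough UMIs, the rule called 1.47%, 2.12% and 6.67% for KO against WT after sham and in the 24 h and 72 h infarcts. It called 6.03% (WT) and 4.73% (KO) for ligation 24 h against sham, and 11.4% and 14.1% for 72 h against 24 h.

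Fibroblast Cxcl12 moved more. In WT it went from 173 to 85.3 CPM at 24 h after ligation, 2.03-fold lower, and stood 3.05-fold higher at 72 h (260.1 CPM). In KO the same steps were -0.75 (95% interval -0.99 to -0.52) and 0.46 (95% interval 0.21 to 0.72) on the log2 scale, and neither met the rule. With only cells of at least 2000 UMIs, the second KO step changed sign, to -0.084. KO against WT at 72 h was called at -1.19 (95% interval -1.37 to -1.0), while the values after sham (-0.31) and at ligation 24 h (-0.04) were not. As means over cells, the WT step to 24 h was -0.70 and KO against WT at 72 h -0.55, both under 2-fold. With no doublet removal the WT steps were -0.51 and 0.98, and the first was -0.98 without its top cell. The background of called fibroblast genes was 1.69%, 3.34% and 13% for KO against WT after sham and in the 24 h and 72 h infarcts, 9.47% (WT) and 13.9% (KO) for ligation 24 h against sham, and 22.3% and 19% for 72 h against 24 h.

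The 72 h value in WT sat in activated-like fibroblasts, the cells that lay down scar matrix. They held 75.3 CPM in KO sham 24 h, 45.6 and 56.9 CPM in the WT and KO 24 h infarcts, and 275 and 51.2 CPM in the 72 h infarcts. These cells came from different sub-clusters: one led by Cxcl5, Cxcl1 and Tnc at 24 h, and one led by Hist1h2ap and the division genes Cdc20 and Hmmr at 72 h, which held 69 of 73 in WT. In KO it held 32 of 72 (54.7 CPM of Cxcl12), beside 36 cells led by Cilp and Thbs4 with no Cxcl12 UMI. WT ligation 72 h was the single high library, 6.03-fold above WT ligation 24 h and 5.37-fold above KO ligation 72 h, against 26.4% and 4.59% of genes called in these cells. They had a median of 40000 UMIs in WT ligation 72 h and 2738 in KO ligation 72 h. The KO 72 h fibroblast class also held sub-clusters led by genes of other cell types. Of Cxcl12, 277 cells led by the heart muscle genes Myl3 and Tnni3 had 70.6 CPM, 379 cells led by the antibody gene Igkc and a B cell receptor chain, Cd79a, had 261 CPM, and 125 cells led by the macrophage genes Ccl24 and C1qa had 27.4 CPM. A further 167 cells led by Pdpn and Il33 had 413 CPM. The part of depth and of these transcripts in the fibroblast difference was not tested.

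Among mural cells, WT ligation 24 h was lower than WT sham by 2.05-fold in pericytes and by 3.38-fold in smooth muscle. Both met the rule, which called 12% and 6.46% of genes there. The pericyte difference was -1.04 (95% interval -1.49 to -0.59) on the log2 scale, and 4 alternatives put it under 2-fold, at -0.75 to -0.96. In KO the same comparison was -0.10 in pericytes and -0.40 in smooth muscle. Smooth muscle Cxcl12 was 2.44-fold higher in KO than in WT at ligation 24 h, from 19 UMIs in 52 WT cells and 35 UMIs in 61 KO cells (5.36% of genes called). The few cardiomyocytes left after the mesh held 519 CPM in KO sham 24 h (62 cells), above the 66.2 CPM in WT sham 24 h (31 cells) and 85.6 CPM in KO ligation 24 h; the last difference met the rule, as did 19.4% of genes.

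Cxcr4, the signalling receptor, was a leukocyte transcript and highest in neutrophils, the first white cells to enter an infarct. Neutrophils held 550.0 CPM (WT) and 537 CPM (KO) after sham, 433 CPM and 309.8 CPM in the 24 h infarcts, and 701 CPM and 585 CPM in the 72 h infarcts. KO ligation 24 h was lowest (299 to 321 CPM) and WT ligation 72 h highest (665 to 738 CPM), and in each genotype the 24 h infarct library was below both others. The share of neutrophils with a Cxcr4 UMI was 59.2% (WT) and 57.9% (KO) after sham, 55.2% and 43.2% in the 24 h infarcts, and 64.3% and 56.4% in the 72 h infarcts. Thinned to 1000 UMIs per cell it was 37.7% (WT) and 38.2% (KO) after sham, 29.8% and 24.2% in the 24 h infarcts, and 42.4% and 41.3% in the 72 h infarcts, again lowest at ligation 24 h in each genotype. Thinning left out 12 to 55 neutrophils per library.

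Fibroblasts, which were taken to lack Cxcr4, gave 1.57 to 4.90 CPM and a UMI in 2.14% to 3.47% of cells in 5 libraries. Their median depths were 8784 to 10805 UMIs, against 1974 to 3162 in neutrophils. These UMIs were not evenly spread. After sham, cells led by Wif1, Dkk3 and Comp held 14 CPM (WT, 8 UMIs) and 13 CPM (KO, 14 UMIs). Cells led by Saa3 or by Cd248 held 0 to 1.53 CPM there. Whether the Wif1-led cells express Cxcr4 was not tested, so the class is an uncertain background. In KO ligation 72 h the fibroblast value was 41.3 CPM and 9.01% of cells (median 1088 UMIs). Pericytes there held 52.3 CPM, against 0 to 11.1 CPM elsewhere. Values of that size outside leukocytes in that library were read as background.

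The neutrophil share of all Cxcr4 UMIs of the kept cells was 64.6% (WT) and 63.3% (KO) after sham, 76.1% and 82.1% in the 24 h infarcts, and 42.4% and 28.1% in the 72 h infarcts. The share of monocytes and macrophages was 18.5% (WT) and 15.2% (KO) after sham, 14.1% and 12.1% in the 24 h infarcts, and 43% and 31.3% in the 72 h infarcts. Neutrophils led up to 24 h after ligation and the shares were level in WT ligation 72 h, when 1880 macrophages and monocytes were kept beside 955 neutrophils. Unnamed cells carried 17.4% in KO ligation 72 h.

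B cells, which use Cxcr4 to home to lymphoid stroma, were second in level in the 4 ligation libraries with 304 and 172 CPM (WT and KO) at 24 h and 142 and 123 CPM at 72 h. After sham, 37 KO B cells held 84.5 CPM. The change from 24 h to 72 h in WT was called at -1.10 (95% interval -1.54 to -0.67) on the log2 scale (5.29% of genes called). Monocytes and macrophages held 30.9 CPM (WT) and 23.8 CPM (KO) after sham, 39.9 CPM and 23.3 CPM in the 24 h infarcts, and 61 CPM and 76.7 CPM in the 72 h infarcts. Dendritic cells held 27.7 CPM (WT) and 20.7 CPM (KO) after sham, 55.4 CPM and 42 CPM in the 24 h infarcts, and 41.2 CPM and 48.4 CPM in the 72 h infarcts. Their interval overlapped that of the monocytes and macrophages in WT sham 24 h (20.5 to 36.7 against 27.7 to 34.3 CPM), and their KO step from sham to 24 h was called (1.02, with 4.14% of genes called). T and NK cells held 52.8 and 34.7 CPM at ligation 24 h and 28.1 and 70.7 CPM at 72 h. Neutrophils were above every other class with at least 30 cells in all 6 libraries.

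Neutrophil sub-clusters, again made without the 3 genes, differed in Cxcr4. A sub-cluster with Bcl2l15 and Ltc4s among its leading genes (the Bcl2l15 cells) held 812 and 795 CPM (WT and KO) after sham, 488 CPM in KO ligation 24 h, and 779 and 642 CPM in the 72 h infarcts. A sub-cluster led by Retnlg, Ngp and Ly6g, genes of young neutrophils, held 372 CPM (WT) and 399.6 CPM (KO) after sham, 262 CPM and 241 CPM in the 24 h infarcts, and 455 CPM and 402 CPM in the 72 h infarcts. The Retnlg-led cells were below the Bcl2l15 cells in each of the 5 libraries where both had 30 cells. Siglecf, a surface lectin seen on long-lived tissue neutrophils, was also higher in the first: it stood at 253, 148, 65.1, 392 and 327 CPM in the Bcl2l15 cells of those libraries and at 38.3, 19.7, 16.4, 30.7 and 28.7 CPM in the Retnlg-led cells.

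A sub-cluster led by Tnf and Icam1 held 617 and 589 CPM after sham, 962 and 556 CPM at ligation 24 h and 527 CPM in WT ligation 72 h. Its WT ligation 24 h value was the highest of any neutrophil sub-cluster, beside a Siglecf of 60.6 CPM in the same cells. Siglecf in this sub-cluster was 133 and 88.3 CPM after sham, 52 CPM in KO ligation 24 h and 60.5 CPM in WT ligation 72 h. High Cxcr4 thus did not always come with high Siglecf. Cells led by the chitinase-like gene Chil3 held 488 and 537 CPM after sham, 571 and 315 CPM at ligation 24 h and 510.1 CPM in WT ligation 72 h. Interferon-responding-like cells, led by Ifit3, held 559 CPM (WT) and 504 CPM (KO) after sham, 401 CPM and 293 CPM in the 24 h infarcts, and 694 CPM and 614 CPM in the 72 h infarcts. Their KO step from 24 h to 72 h was called (1.07, with 22.9% of genes called). Cells led by the hypoxia-responsive gene Ero1l were present in number at ligation 24 h only, with 354 CPM in WT (595 cells) and 236 CPM in KO (878 cells). Cells led by the platelet genes Nrgn and Pf4 held 402 and 303 CPM there. In all 6 sub-clusters with 30 cells in both 24 h infarct libraries, the KO value was below the WT value. These sub-clusters share the same libraries and are not independent. The WT and KO intervals overlapped in the Retnlg-led cells (216 to 314 and 211 to 274 CPM), the Ifit3-led cells and the Nrgn-led cells.

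**Figure D3:**
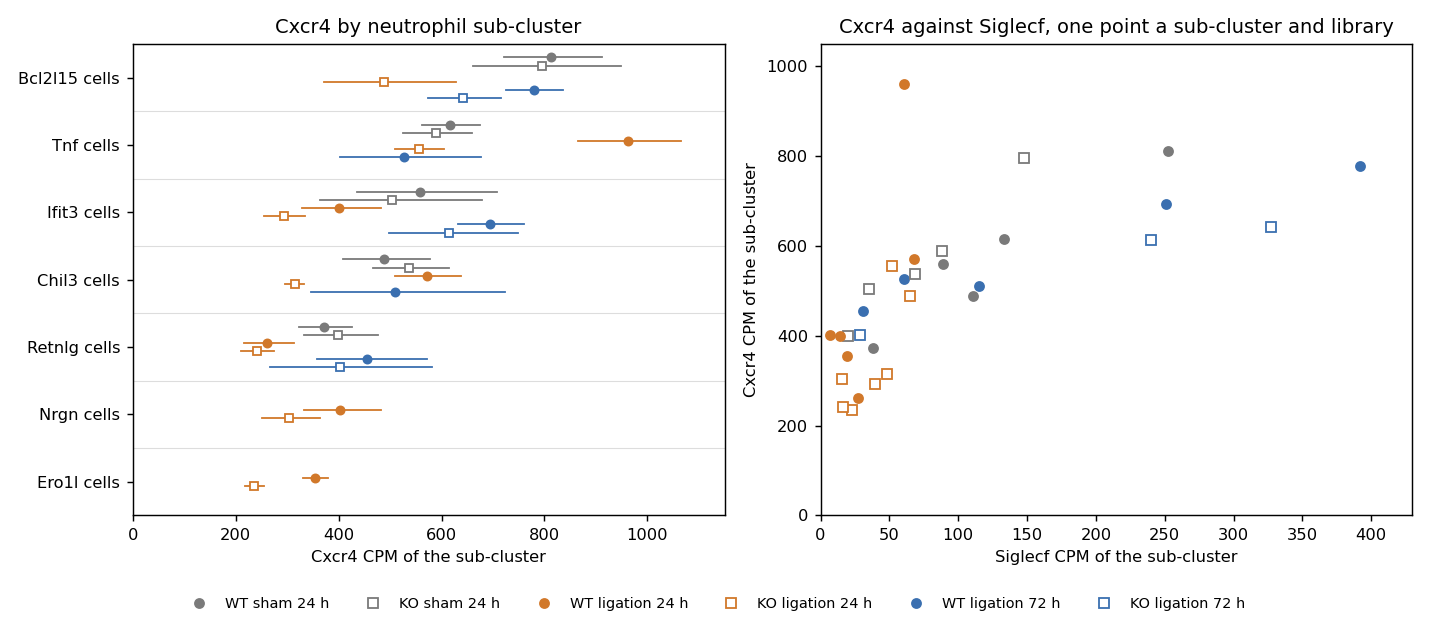
Cxcr4 CPM of neutrophil sub-clusters with at least 30 cells, 1 point per library with its exact Poisson 95% interval, beside the Siglecf CPM of the same cells. Each sub-cluster is labelled by 1 of its leading genes. The Bcl2l15 cells lie at 488 to 812 CPM of Cxcr4 with 65.1 to 392 CPM of Siglecf. The Retnlg cells lie at 241 to 455 CPM with 16.4 to 38.3 CPM of Siglecf. The highest Cxcr4, 962 CPM in the Tnf cells of WT ligation 24 h, comes with 60.6 CPM of Siglecf. Open squares are KO and filled points WT.

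Neutrophil Cxcr4 met the call rule in none of the 7 comparisons. KO against WT was -0.03 (95% interval -0.16 to 0.10) on the log2 scale after sham, -0.48 (95% interval -0.57 to -0.40) at ligation 24 h and -0.26 (95% interval -0.41 to -0.11) at ligation 72 h. Ligation 24 h against sham was -0.35 in WT and -0.79 in KO, a 1.27-fold and a 1.73-fold lower level. The median of all neutrophil genes moved by -0.23 and -0.19 over this step. From 24 h to 72 h Cxcr4 was 0.70 higher in WT and 0.92 higher in KO, while the median of all neutrophil genes moved by 0.54 and 0.51. The rule called 1.34%, 3.24% and 1.47% of neutrophil genes for KO against WT after sham and in the 24 h and 72 h infarcts, 13.5% (WT) and 6.12% (KO) for ligation 24 h against sham, and 38.8% and 32.6% for 72 h against 24 h.

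Cxcr4 is among the transcripts that can move when leukocytes are warmed and digested, so 9 dissociation-response genes were summed beside it. In neutrophils they came to 6614 CPM (WT) and 6983 CPM (KO) after sham, 8106 CPM and 7747 CPM in the 24 h infarcts, and 8392 CPM and 8576 CPM in the 72 h infarcts. In monocytes and macrophages they came to 2391 CPM (WT) and 2218 CPM (KO) after sham, 3781 CPM and 2893 CPM in the 24 h infarcts, and 1892 CPM and 2608 CPM in the 72 h infarcts. In neutrophils the sums were higher after ligation than after sham, and in macrophages they were highest at ligation 24 h. Their part in the Cxcr4 values was not tested.

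In monocytes and macrophages, Cxcr4 was called higher at 72 h than at 24 h after ligation in KO, at 1.72 (95% interval 1.54 to 1.90) on the log2 scale, and not in WT (0.61). KO against WT was -0.37 after sham, -0.78 at ligation 24 h and 0.33 at ligation 72 h, and none was called. The background of called genes was 1.6%, 1.77% and 1.98% for those 3, 6.23% (WT) and 8.2% (KO) for ligation 24 h against sham, and 15.7% and 8.28% for 72 h against 24 h. Classical-like monocytes, the recruits from blood, held 33.3 CPM (WT) and 20.5 CPM (KO) after sham, 50.1 CPM and 31.3 CPM in the 24 h infarcts, and 66.7 CPM and 94.1 CPM in the 72 h infarcts, and the KO step from 24 h to 72 h was called (1.59; 3.65% of genes). A Ccl24-led macrophage sub-cluster held 17.3 CPM (WT) and 14 CPM (KO) after sham, 19.5 CPM and 12.6 CPM in the 24 h infarcts, and 34.6 CPM and 94.9 CPM in the 72 h infarcts. Its KO 72 h value was called against KO ligation 24 h (2.91; 13.6% of genes) and against WT ligation 72 h (1.45; 3.29% of genes). These cells had a median of 1789 UMIs in KO ligation 72 h, against 15559 in KO ligation 24 h and 5052 in WT ligation 72 h. Summed neutrophil markers in all monocytes and macrophages of those libraries were 747, 2135 and 181 CPM, and fibroblasts of KO ligation 72 h read 41.3 CPM of Cxcr4. The part of depth and free RNA in the KO 72 h calls was not tested. Resident-like macrophages (Lyve1, Mgl2) held 30.3 and 20.2 CPM after sham, 46.6 and 18.6 CPM at ligation 24 h and 52.1 CPM in WT ligation 72 h; the KO value at 24 h was 2.51-fold lower and met the rule, as did 2.63% of genes. Lipid-handling-like macrophages, abundant at 72 h, held 69.4 and 69 CPM. Non-classical-like monocytes had 141 CPM in WT sham 24 h (41 cells), the highest of these.

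Cxcr4 was also read in arterial-like endothelium, beside its own ligand. Arterial-like cells held 71.3 CPM (WT) and 42.6 CPM (KO) after sham and 15.5 CPM and 31.9 CPM in the 24 h infarcts, with a UMI in 21.8%, 14%, 6.90% and 9.80% of cells. Capillary-like cells held 11 and 4.27 CPM after sham, and fibroblasts 3.30 and 4.90 CPM. In WT sham 24 h all 57 arterial-like cells with a Cxcr4 UMI also had Cxcl12, and in KO sham 24 h 41 of 43 did. All 42 arterial-like cells with Ackr3 in WT sham 24 h had it too. Cxcl12 was high in arterial-like cells, so this overlap cannot show that ligand and receptor go together. The lower WT value at ligation 24 h was called at -2.20 (95% interval -4.11 to -0.78) on the log2 scale, from 4 UMIs in WT ligation 24 h, with 3.74% of genes called. Other settings put that level at 33.2 CPM with no doublet removal, 29.5 and 27.3 CPM at Leiden resolutions 2 and 0.5, 9.72 CPM as a mean over cells and 1.60 CPM less the background; the ratio stayed past 2-fold in all 10 alternatives, at a log2 value of -1.09 or lower. Over the whole endothelial class Cxcr4 was 26 and 18.2 CPM after sham, 14.9 and 22.4 CPM in the 24 h infarcts, and 21.7 and 66.3 CPM in the 72 h infarcts. The KO 72 h value met the rule against WT (1.61) and against KO ligation 24 h (1.57); summed neutrophil markers in these endothelial cells were 3933 CPM there and 94.8 to 1732 CPM in the other libraries.

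Ackr3, the scavenging receptor, was spread over fibroblasts and endothelium. Fibroblasts held 90.6 CPM (WT) and 132 CPM (KO) after sham, 153 CPM and 69 CPM in the 24 h infarcts, and 28.2 CPM and 24.6 CPM in the 72 h infarcts. WT ligation 24 h was highest and both 72 h libraries were lowest, and the order of WT and KO changed between sham and 24 h after ligation. Endothelial cells held 57 CPM (WT) and 63.6 CPM (KO) after sham, 124 CPM and 98.9 CPM in the 24 h infarcts, and 105 CPM and 64.3 CPM in the 72 h infarcts, below fibroblasts in both sham libraries and WT ligation 24 h and above them in the other 3. Smooth muscle held 60.9 CPM (WT) and 67.9 CPM (KO) after sham and 40.1 CPM and 38.3 CPM in the 24 h infarcts, and 39 lymphatic endothelial cells of WT sham 24 h held 108 CPM. In WT sham 24 h the order was lymphatic endothelium (79 to 145), fibroblasts (81.5 to 101), smooth muscle (47.1 to 77.5) and endothelium (52.1 to 62.3 CPM); the first pair overlapped, and so did the last pair.

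Neutrophils set a low background, with 0 to 8 Ackr3 UMIs per library. The 0 UMIs in 955 WT neutrophils at 72 h allow, taken as 3 counts of the total, up to 1.44 CPM, or a UMI in up to 0.314% of cells. The share of fibroblasts with an Ackr3 UMI was 38.2% (WT) and 38.8% (KO) after sham, 44.3% and 28.9% in the 24 h infarcts, and 20.8% and 4.23% in the 72 h infarcts. Among neutrophils it was at most 0.444%. Thinned to 1000 UMIs, the fibroblast shares were 8.70% (WT) and 10.7% (KO) after sham, 11.5% and 5.41% in the 24 h infarcts, and 5.07% and 2.29% in the 72 h infarcts, with 2 to 554 cells left out per library. Median fibroblast depth was 8806 UMIs in WT sham 24 h and 1088 in KO ligation 72 h. The endothelial share of all Ackr3 UMIs was 47.1% (WT) and 47% (KO) after sham, 37.9% and 40.1% in the 24 h infarcts, and 45.3% and 37% in the 72 h infarcts. The fibroblast share was 33.9% (WT) and 35.8% (KO) after sham, 36.8% and 29.6% in the 24 h infarcts, and 24.1% and 29.2% in the 72 h infarcts. The share of monocytes and macrophages was 7.12% (WT) and 7.04% (KO) after sham, 16.5% and 20.2% in the 24 h infarcts, and 12.3% and 5.06% in the 72 h infarcts.

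In 3 of the 4 libraries before 72 h, most fibroblast Ackr3 lay in adventitial-like cells, the Pi16 and Cd248 fibroblasts found around large vessels. They held 334 CPM (291 to 382) in WT sham 24 h, 406 CPM (369 to 446) in KO sham 24 h and 619.9 CPM (552 to 694) in WT ligation 24 h. The cells numbered 70, 113 and 43, and 84.3%, 86.7% and 97.7% of them had an Ackr3 UMI. Their share of the fibroblasts was 18.8% (WT) and 24.5% (KO) after sham, 22.2% and 10.7% in the 24 h infarcts, and 4.17% and 0.319% in the 72 h infarcts. Their share of the fibroblast Ackr3 UMIs was 61.1% (WT) and 72.3% (KO) after sham, 77.1% and 41.8% in the 24 h infarcts, and 41.1% and 25.3% in the 72 h infarcts. The other fibroblasts held 42.3 CPM (WT) and 48.1 CPM (KO) after sham, 43.2 CPM and 43.6 CPM in the 24 h infarcts, and 17 CPM and 18.6 CPM in the 72 h infarcts: their 4 sham and 24 h values lay close together and both 72 h values were lower. In KO ligation 72 h they included 379 cells led by Igkc and Cd79a (37.7 CPM of Ackr3) and 277 led by Myl3 and Tnni3 (6.14 CPM). The part of other cells' transcripts in that value was not tested. Activated-like fibroblasts held 36 and 37.5 CPM in the 24 h infarcts and 9.16 and 3.94 CPM in the 72 h infarcts. Both steps were called, at -1.97 (95% interval -2.75 to -1.22) in WT and -3.25 (95% interval -5.57 to -1.63) in KO, where 26.4% and 16.2% of genes were, but they set the Cxcl5-led sub-cluster of 24 h against the Hist1h2ap-led and Cilp-led ones of 72 h. The KO 72 h value was 3 UMIs from 1 cell, and 1 cell held 19 of the 54 UMIs in KO ligation 24 h. At a coarser sub-clustering (resolution 0.3), the adventitial-like cells held 120.2, 189.5 and 298 CPM in the same 3 libraries.

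**Figure D4:**
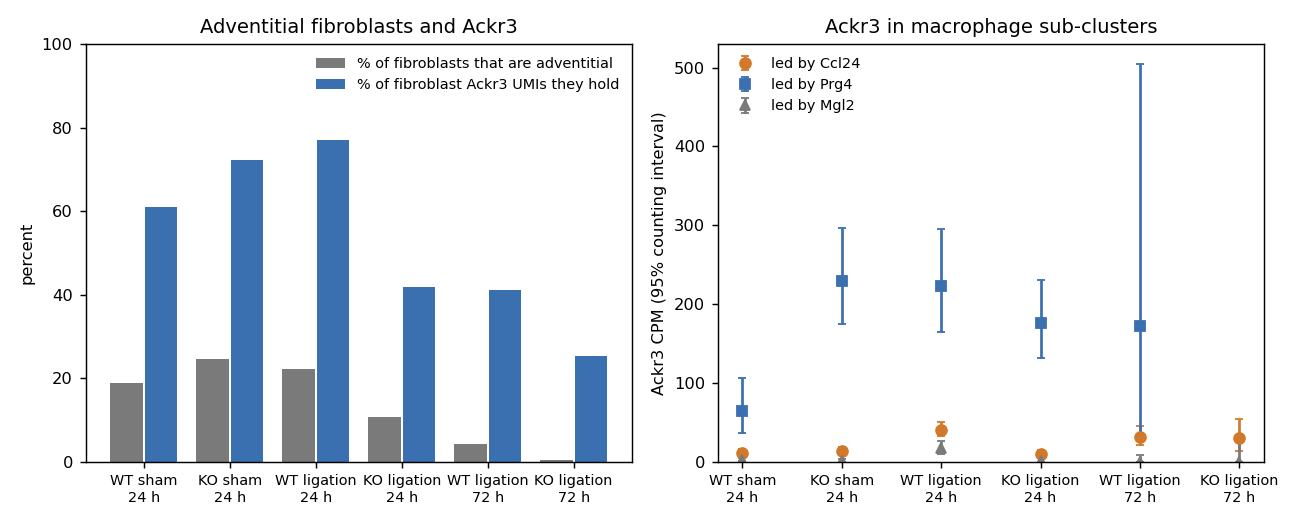
Left, for each library, the percent of fibroblasts that were adventitial-like (grey bars) and the percent of fibroblast Ackr3 UMIs they held (blue bars); the blue bar is the taller in all 6 libraries, 61.1% against 18.8% in WT sham 24 h. Right, Ackr3 CPM of 3 macrophage sub-clusters with exact Poisson 95% intervals; the Prg4-led cells stand above the Ccl24-led cells in the 5 libraries that hold them.

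Fibroblast Ackr3 was called lower in KO than in WT at ligation 24 h, at -1.15 (95% interval -1.42 to -0.88) on the log2 scale, or 2.22-fold. It was 0.55 after sham and -0.20 at 72 h, and neither was called. From 24 h to 72 h it was 5.43-fold lower in WT and 2.81-fold lower in KO, and both were called. The KO 72 h class held the sub-clusters led by genes of other cell types, whose part in this step was not tested. As means over cells, KO against WT was -0.83 at ligation 24 h, under 2-fold, and -1.23 at 72 h. Ligation 24 h against sham was 0.76 in WT and -0.94 in KO, in opposite directions and neither called; without its top cell the KO value was -1.07. The called share of all fibroblast genes was 3.34% for the KO and WT 24 h infarcts and 22.3% (WT) and 19% (KO) for 72 h against 24 h. From sham to ligation 24 h the share of adventitial-like cells went from 18.8% to 22.2% in WT and from 24.5% to 10.7% in KO. The level within these cells also differed, from 334 CPM in WT sham 24 h to 619.9 CPM in WT ligation 24 h. At ligation 24 h, 43 such cells in WT held 300 UMIs and 20 in KO held 71. Among the other fibroblasts, WT and KO ligation 24 h were 43.2 and 43.6 CPM. The parts of cell share and of level per cell were not tested. The dissociation-response genes came to 898 and 1835 CPM in WT fibroblasts after sham and at ligation 24 h, and to 897 and 1025 CPM in KO; their part was not tested.

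Endothelial Ackr3 went from 57 to 124 CPM between sham and 24 h after ligation in WT, a called difference of 1.12 (95% interval 0.93 to 1.32) on the log2 scale. It was 0.84 at Leiden resolution 0.5 and 0.99 as a mean over cells, both under 2-fold. In KO it was 0.64 (95% interval 0.42 to 0.85), not called. KO against WT was 0.16, -0.33 and -0.70 after sham, at ligation 24 h and at ligation 72 h. The 72 h against 24 h values, -0.25 in WT and -0.62 in KO, turned to 0.51 and 0.34 at Leiden resolution 0.5, where KO ligation 72 h held 118 CPM. The 9 dissociation-response genes were also higher at ligation 24 h than after sham in endothelial cells. They came to 601 and 1696 CPM in WT and to 516 and 809 CPM in KO. At 72 h the order differed, with 718 CPM in WT and 1340 CPM in KO, where Ackr3 was lower in KO (-0.70). The part of these genes was not tested. The background of called endothelial genes for ligation 24 h against sham in WT was 6.03%. Angiogenic-like cells held 39.3 CPM (WT) and 54 CPM (KO) after sham, 134 CPM and 76 CPM in the 24 h infarcts, and 84.8 CPM and 68.9 CPM in the 72 h infarcts. The WT step from sham to 24 h was called there (1.77, with 10.7% of genes called). Endocardial-like cells, lowest for the ligand, held 175 and 402 CPM after sham and 418 CPM in KO ligation 24 h. An Ackr3 UMI was found in 44.2%, 76.2% and 73.3% of these cells. KO was 2.30-fold above WT after sham (80 and 77 cells), which met the rule, as did 3.53% of genes. Of 61 KO endocardial-like cells with Ackr3, 6 also had Cxcl12, against 52 of 56 arterial-like cells in the same library. Cxcl12 was low in endocardial-like and high in arterial-like cells as a whole, so these counts cannot show pairing within cells.

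Ackr3 was read above the neutrophil level in macrophages, at 6.81 CPM (WT) and 13.8 CPM (KO) after sham, 19.9 CPM and 6.11 CPM in the 24 h infarcts, and 1.90 CPM and 1.76 CPM in the 72 h infarcts. It lay in few of them. A Prg4-, Serpinb2- and Alox15-led sub-cluster of 19, 19, 16, 18 and 5 cells in the 5 libraries up to WT ligation 72 h, under the 30 cells asked of other levels, had an Ackr3 UMI in 47.4%, 84.2%, 62.5%, 77.8% and 40% of cells. Its level was 64.5, 229.6, 223, 176 and 173 CPM. It held 20%, 49.6%, 28.2%, 45.7% and 6.52% of the macrophage Ackr3 UMIs of these libraries. Prg4, Serpinb2 and Alox15 are known from macrophages of the serous cavities; this sub-cluster was singled out after its values had been seen.

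The larger Ccl24-led sub-cluster held 11.6 CPM (WT) and 14 CPM (KO) after sham, 40.7 CPM and 10.3 CPM in the 24 h infarcts, and 31.5 CPM and 29.7 CPM in the 72 h infarcts. Its share of the macrophage Ackr3 UMIs was 60% (WT) and 33.3% (KO) after sham, 54% and 31% in the 24 h infarcts, and 65.2% and 76.9% in the 72 h infarcts. Summed fibroblast markers were 132 CPM in its cells with an Ackr3 UMI and 118 CPM in those without in WT sham 24 h, and 102 and 125 CPM in KO ligation 24 h. Macrophage markers were lower in the cells with Ackr3 in all 6 libraries (7769 against 13274 CPM in WT sham 24 h) and their median depth was higher in all 6 (11686 against 8820.5 UMIs there). Whether other cells' transcripts took part in these Ackr3 values was not tested. At sub-cluster resolution 0.3 the Ccl24-led values were 18.4 (WT) and 4.94 CPM (KO) in the 24 h infarcts and 7.31 and 5.09 CPM in the 72 h infarcts; at resolution 1.0 the 72 h values were 66.7 and 0 CPM. Resident-like macrophages held 17 CPM in WT ligation 24 h and at most 1.63 CPM in the other 4 libraries with 30 cells. Classical-like monocytes held at most 0.792 CPM.

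Macrophage Ackr3 was called in both directions. KO was 2.03-fold above WT after sham and 3.26-fold below WT at ligation 24 h. From sham to 24 h after ligation it was called higher in WT, at 1.55 (95% interval 1.15 to 1.96) on the log2 scale, and lower in KO, at -1.18 (95% interval -1.56 to -0.79). From 24 h to 72 h it was called lower in both (-3.39 and -1.80). The background of called genes in this class was 1.6% and 1.77% for KO against WT after sham and at ligation 24 h. The sham difference was 0.32 with finer clusters (Leiden resolution 2) and 0.46 as a mean over cells, both under 2-fold. As means over cells the KO steps were -0.98 to 24 h and -0.04 from 24 h to 72 h. The second was -0.78 and -0.76 at Leiden resolutions 0.5 and 2, and KO against WT at 72 h was 1.01 at resolution 0.5 against -0.12. Within the Ccl24-led sub-cluster the KO value at ligation 24 h was 3.95-fold below WT, also called (3.94% of genes), and the WT step from sham was called higher (1.80; 3.97% of genes).

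**Figure D5:**
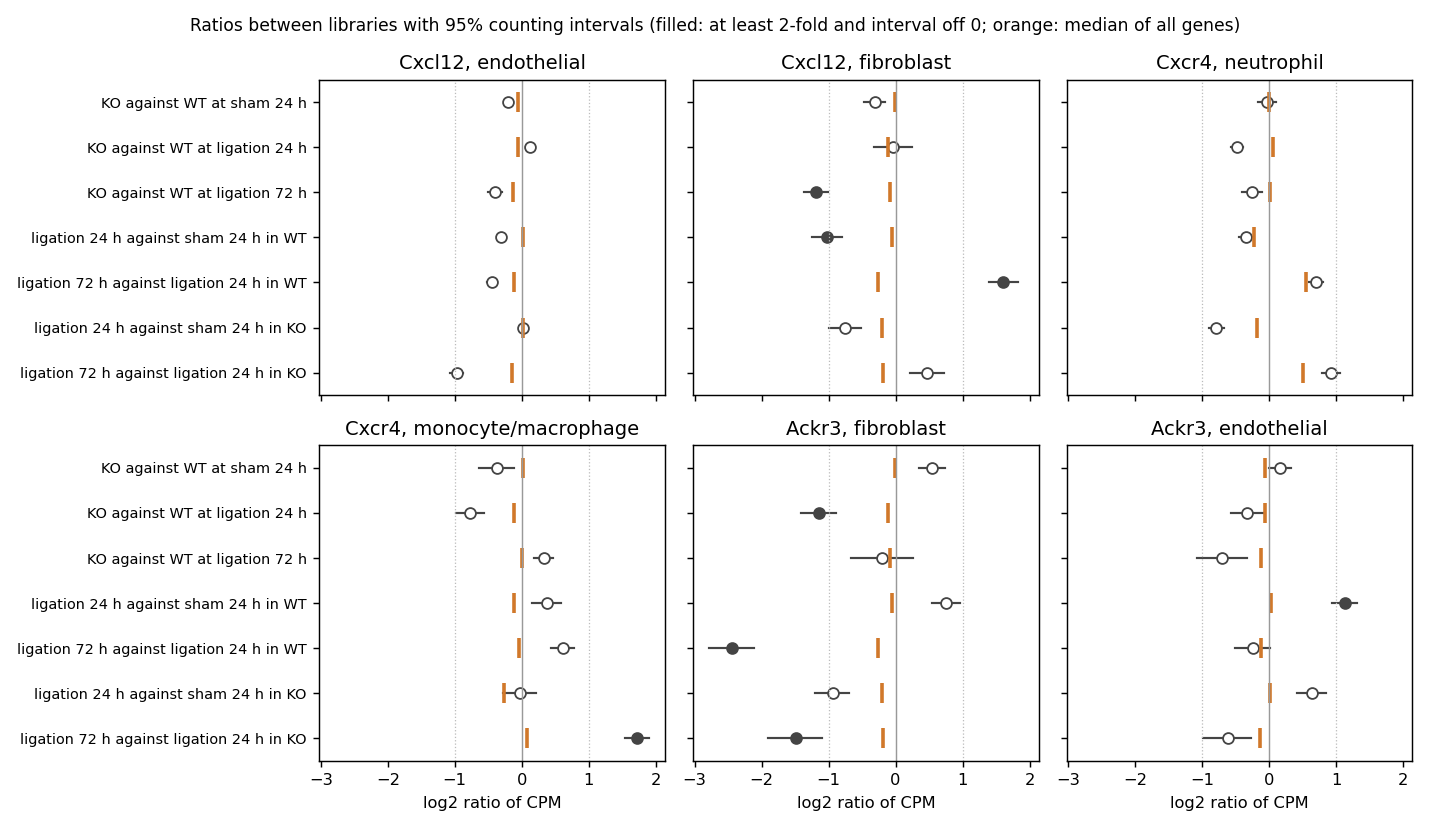
Log2 ratios of the 3 genes between libraries, for KO against WT and for successive times after ligation, in 6 pairs of gene and class. Points are ratios, filled where called, bars are exact conditional 95% intervals (counting error only), and orange ticks mark the median of all genes. Endothelial Cxcl12 and neutrophil Cxcr4 lie within 1 log2 unit of 0 throughout, while fibroblast Ackr3 passes -1 in 3 comparisons.

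A list of 41 genes around the axis was read by the same rule in endothelial cells, neutrophils and fibroblasts: other ligands of these receptors, ligand-degrading enzymes, G protein and desensitization partners, transcription factors, trafficking molecules and niche factors. In neutrophils, KO against WT gave 0 higher and 0 lower of 24 after sham, 0 higher and 0 lower of 26 at ligation 24 h and 1 higher and 0 lower of 25 at ligation 72 h. From sham to 24 h after ligation there were 1 higher and 4 lower of 24 in WT and 1 higher and 5 lower of 26 in KO, and from 24 h to 72 h 5 higher and 3 lower of 24 and 6 higher and 3 lower of 25. The shares called over all neutrophil genes were 1.34%, 3.24% and 1.47% for the first 3, 13.5% (WT) and 6.12% (KO) for the step to 24 h, and 38.8% and 32.6% for the step to 72 h. In both genotypes Mif, a cytokine that also binds Cxcr4, was higher at ligation 24 h (178 to 447 CPM in WT, 118 to 477 CPM in KO). Icam1, an adhesion ligand (258 to 106 CPM in WT), Itga4, an integrin chain (109 to 37.2 CPM in WT), and Rgs1, which shuts off G protein signals (96.1 to 30.8 CPM in WT), were called lower in both.

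At 72 h, neutrophil Siglecf (28.7 to 287 CPM in WT and 36.3 to 261 CPM in KO), Itga4 and Rgs1 were called higher than at 24 h after ligation in both genotypes. Itgam, the integrin chain CD11b (1121 to 374 CPM and 948 to 390.2 CPM), and Grk5, a receptor kinase, were among those called lower. The 8 trafficking genes tested had a median of -0.12 in WT and 0.38 in KO on the log2 scale, against 0.54 and 0.51 over all genes.

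In endothelial cells, the counts for KO against WT were 0 higher and 1 lower of 27 after sham, 4 higher and 0 lower of 26 at ligation 24 h and 6 higher and 1 lower of 28 at ligation 72 h. They were 3 higher and 2 lower of 25 in WT and 6 higher and 0 lower of 28 in KO from sham to 24 h, and 4 higher and 3 lower of 24 and 7 higher and 5 lower of 28 from 24 h to 72 h. Over all endothelial genes the shares called were 1.47%, 2.12% and 6.67% for KO against WT, 6.03% and 4.73% to 24 h, and 11.4% and 14.1% to 72 h. The 4 genes higher in KO at ligation 24 h, Mmp9, Cxcr2, Itgam and Cd74, are leukocyte genes, and summed neutrophil markers in endothelial cells were 354 CPM in WT and 1732 CPM in KO there; their part was not tested. Adm, the peptide adrenomedullin that Ackr3 also binds, was called higher at ligation 24 h in both genotypes (19.9 to 60.7 CPM and 13.9 to 48.6 CPM), as was Mmp14, a membrane protease. Epas1, the hypoxia factor HIF-2α, was called lower at 72 h in both (649 to 266 CPM and 579 to 178 CPM). The flow-responsive factor Klf2 was called lower at 72 h in WT (1696 to 738 CPM). The higher genes in KO at 72 h included the leukocyte genes Cd74 (WT 53.9 CPM, KO 1334 CPM) and Rgs1. The transcription factors of the list had medians of -0.75 (WT) and -0.96 (KO) for 72 h against 24 h, where the medians of all genes were -0.12 and -0.14.

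In fibroblasts, the counts for KO against WT were 0 higher and 0 lower of 27 after sham, 1 higher and 1 lower of 28 at ligation 24 h and 11 higher and 1 lower of 31 at ligation 72 h. They were 3 higher and 1 lower of 28 in WT and 2 higher and 5 lower of 27 in KO from sham to 24 h, and 0 higher and 10 lower of 25 and 8 higher and 4 lower of 33 from 24 h to 72 h. Over all fibroblast genes the shares called were 1.69%, 3.34% and 13% for KO against WT, 9.47% and 13.9% to 24 h, and 22.3% and 19% to 72 h. At ligation 24 h Mif was called higher (434 to 974 CPM in WT and 438 to 1367 CPM in KO) and Vcam1, a ligand of leukocyte integrins, lower (159 to 73.9 CPM and 191 to 76.3 CPM). In WT at 72 h the lower genes included the niche factors Kitl and Angpt1, and the chemokine Cxcl14 (489 to 208 CPM), while Cxcl12 was higher there. The higher genes in KO at 72 h included the leukocyte genes Cd74, Itgam, Mmp9, Cxcr2 and Rgs1.

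The genes whose levels were most like each member were ranked by Pearson's r of log2(CPM + 10) over 55 class-by-library sums of at least 50 cells, among 5047 genes. The sums share libraries and classes and are not independent. For Cxcl12 they were Eng (0.94), Col4a2 (0.94), Ptprg (0.93), Col4a1 (0.93) and Apbb2 (0.93), which include the endothelial receptor Eng and the basement membrane collagens. For Cxcr4 they included Neurl3 (0.95), Stk17b (0.91), Nfkbid (0.91) and 2310001H17Rik (0.89). For Ackr3 they were Eln (0.91), Plpp3 (0.90), Myh10 (0.89), Fmo2 (0.88) and Bmp6 (0.87), of which Eln is the elastic fibre protein elastin. With log2(CPM + 1), 3, 3 and 4 of each 5 were again in the list, and without KO ligation 72 h 2, 5 and 4.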

How the data were processed

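The deposited values were UMI counts per gene and cell, made by the authors with Cell Ranger 6.0.0 on mm10, per the submitters' processing notes. The annotation and any later filter are not given in the sources used here. The counts were used as deposited. Cells with under 200 genes, over 20% mitochondrial or over 20% hemoglobin UMIs were left out, and Scrublet's highest scores were removed at 0.8% per 1000 deposited cells, which left 31933 of 34940 cells. The 2000 most variable genes without the 3 members and 30 components were clustered together (scanpy 1.11.5, Leiden resolution 1, sub-clusters 0.6) with no correction between libraries, and 28 of 30 clusters were named from marker lists; the naming rules were adjusted after the clusters had been seen. UMIs were summed per class and library and divided by the class total (CPM). Levels needed 30 cells, except in the macrophage sub-clusters given for Ackr3, and called ratios 50 cells and 50 UMIs. Ratios have exact conditional intervals. They were checked only on simulated Poisson counts, which meet the intervals' own assumption, so the check does not cover the spread between cells. Some genes are not reported here. The members and lists were chosen with earlier results of these data known. Genes of the lists were named where called, at most 3 per list and direction. Alternatives were other resolutions, no doublet removal, a 10% mitochondrial limit, cells of 2000 UMIs or more, means over cells, removal of the top cell and subtraction of background.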

Additional observations from a re-analysis of the deposited data

Results flagged for a closer look

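Several differences took opposite signs in 2 genotypes or at 2 times, on the log2 scale, with intervals that left out 0 on each side; with 1 library per group, whether they differ was not tested. Fibroblast Ackr3 was 0.76 in WT and -0.94 in KO from sham to 24 h after ligation, so that KO against WT was 0.55 after sham and -1.15 at ligation 24 h. Ackr3 in monocytes and macrophages was 1.55 in WT and -1.18 in KO over the same step, and 1.02 and -1.70 for KO against WT.

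Endothelial Cxcl12 for KO against WT was -0.20 after sham, 0.13 at ligation 24 h and -0.40 at ligation 72 h. Endothelial Cxcr4 was -0.52 after sham and 1.61 at ligation 72 h, the latter in the library with leukocyte transcripts in its endothelial cells. Cxcr4 in monocytes and macrophages was -0.37 after sham, -0.78 in the 24 h infarcts and 0.33 in the 72 h infarcts. In classical-like monocytes it was -0.68 and 0.50 in the 24 h and 72 h infarcts.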

How the results depend on the processing

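No paired analysis was possible because each group has 1 library. For endothelial Cxcl12, neutrophil Cxcr4 and fibroblast Ackr3, the 7 comparisons under 8 alternatives gave 168 values, of which 132 stayed within counting error and 163 kept their sign. The cause of the moves was not tested. As means over cells, endothelial Cxcl12 had moved to these log2 values: KO against WT after sham -0.15, KO against WT at ligation 24 h 0.21, KO against WT at ligation 72 h -0.95, WT sham to 24 h -0.41, WT 24 h to 72 h -0.0096, KO sham to 24 h -0.052 and KO 24 h to 72 h -1.17. At Leiden resolution 0.5, endothelial Cxcl12 had moved to these log2 values: KO against WT at ligation 24 h 0.027, KO against WT at ligation 72 h 0.17, WT sham to 24 h -0.19 and KO 24 h to 72 h -0.29. With at most 10% mitochondrial UMIs, endothelial Cxcl12 had moved to these log2 values: KO against WT at ligation 24 h 0.19, KO against WT at ligation 72 h -0.27, WT sham to 24 h -0.25, WT 24 h to 72 h -0.79, KO sham to 24 h 0.16 and KO 24 h to 72 h -1.26. With at least 2000 UMIs per cell, endothelial Cxcl12 had moved to these log2 values: KO against WT at ligation 24 h 0.043, KO against WT at ligation 72 h -0.25, WT 24 h to 72 h -0.54 and KO 24 h to 72 h -0.83. With no doublet removal, endothelial Cxcl12 had moved to these log2 values: KO against WT at ligation 72 h -0.25, KO sham to 24 h -0.050 and KO 24 h to 72 h -0.79. Without the top cell, endothelial Cxcl12 had moved to these log2 values: KO against WT at ligation 72 h -0.51 and KO 24 h to 72 h -1.10. At Leiden resolution 2, endothelial Cxcl12 had moved to these log2 values: KO 24 h to 72 h -0.85. With at least 2000 UMIs per cell, neutrophil Cxcr4 had moved to these log2 values: KO against WT at ligation 24 h -0.61 and WT sham to 24 h -0.22. As means over cells, neutrophil Cxcr4 had moved to these log2 values: WT 24 h to 72 h 0.55 and KO 24 h to 72 h 0.78. As means over cells, fibroblast Ackr3 had moved to these log2 values: KO against WT at ligation 24 h -0.83, KO against WT at ligation 72 h -1.23, WT 24 h to 72 h -1.80, KO sham to 24 h -0.36 and KO 24 h to 72 h -2.20. Of 431 ratios in other classes, 378 stayed within counting error and 402 kept their sign. Of the levels, 498 stayed and 122 moved. Depth limits the KO ligation 72 h library most, where 53.7% of kept cells had under 1500 UMIs.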
